A study of Caenorhabditis elegans with 12 samples.

Results

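The proteasome is the large protease that destroys ubiquitin-tagged proteins in every eukaryotic cell. Its core particle is a barrel of alpha rings, which gate the entrance, and beta rings, which carry the proteolytic sites. The regulatory particle caps the barrel: a base of AAA ATPases and scaffold subunits unfolds and feeds substrates, and a lid removes their ubiquitin chains.

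Proteasome subunit genes were taken as the genes whose symbol in the authors' deposited comparison tables begins with pas, pbs, rpn or rpt followed by a hyphen and a digit. The rule gave 32 genes of the 44968 features counted. Of these, 14 encode the core particle (7 alpha, pas; 7 beta, pbs) and 18 the regulatory particle (6 base ATPases, rpt; 12 further subunits, rpn). The rpn genes are the base scaffolds rpn-1 and rpn-2, the ubiquitin receptor rpn-10 and 9 lid genes, among them the paralogs rpn-6.1 and rpn-6.2. All 32 genes passed the filter on low counts. Each library held between 5724 and 318351 reads on them.

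The nematode Caenorhabditis elegans, wild-type strain N2, was studied as whole larvae of the first stage (L1). Their messenger RNA was sequenced in 12 libraries, 3 biological replicates (A, B and C) for each of 4 groups. Embryos from bleached worms were placed on plates with 500 or 100 mM NaCl, without or with Escherichia coli OP50 as food, and were collected after 24 h at 25 °C. The labels of all 12 libraries give maintenance of the worms at 20 °C before that, and the authors' notes differ on this temperature. The groups are named here unfed high-salt (500 mM, no OP50), fed high-salt (500 mM, OP50), unfed low-salt (100 mM, no OP50) and fed low-salt (100 mM, OP50). The series title names osmotic and starvation-induced arrest. All groups share the strain, the bleaching and a single collection time, so differences in growth by 24 h cannot be told apart from the treatments, and fewer cells of a type cannot be told apart from less RNA per cell.

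Reads on genes ranged from 5613260 to 76542711 per library. Unfed high-salt library A had the lowest share of aligned reads, 38.6%, and fed high-salt library C the highest share of ribosomal RNA reads, 81.8%. Levels are given in CPM, reads per 1000000 of the TMM-scaled library size. Fold changes and adjusted p-values come from edgeR's two-sided quasi-likelihood test over 18028 genes, and a gene rose or fell where its adjusted p was under 0.05. The p-values measure the spread between these libraries, and the labels do not say what libraries with the same letter share. The kit did not keep strand, and exons of 11 of the 32 genes overlap exons of another gene, so reads there cannot be told apart. The longest such overlaps were 212 nucleotides for rpn-7 with nemt-1, 140 for rpn-9 with a non-coding RNA gene and 103 for rpt-4 with rpoa-49. Counts for genes with and without an overlap are given beside each salt comparison.

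RNA of nearly all subunit genes was lower at high salt in fed larvae. Between fed high-salt and fed low-salt larvae 30 of 32 subunit genes fell, 1 rose and 1 did not pass, while 22.1% of all genes tested fell and 16.1% rose. The median log2 fold change of the 32 genes was -1.73, against 0.12 over all genes tested. All 14 core genes fell, with a median of -1.99. Of the 18 regulatory genes 16 fell, with a median of -1.53 over the 18. The libraries of both groups did not overlap, on the lower side, for 31 subunit genes, as for 32.1% of all genes tested. All 11 genes with an exon overlap fell, and of the 21 without one 19 fell and 1 rose, with medians of -1.93 and -1.61.

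The summed level of the 14 core genes was 612, 591 and 363 CPM in fed high-salt libraries A, B and C, against 2069, 2007 and 1862 CPM in fed low-salt libraries A, B and C. The summed level of the 18 regulatory genes was 1011, 957 and 799 CPM in fed high-salt libraries, against 2319, 2506 and 2348 CPM in fed low-salt libraries. Fed high-salt library C was the lowest of its group in both sums, and every fed high-salt library lay below every fed low-salt library. As a share of all reads outside ribosomal RNA genes, a scale that uses no TMM factor, the 32 genes took 0.232%, 0.206% and 0.181% in fed high-salt libraries, against 0.462%, 0.467% and 0.429% in fed low-salt libraries. These shares kept both groups apart as well, with a smaller relative gap than the summed CPM. The summed CPM of the 32 genes had means of 1445 in fed high-salt and 4371 in fed low-salt larvae. TMM factors ranged from 0.284 in fed high-salt library C to 1.57 in unfed high-salt library A.

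**Figure D1:**
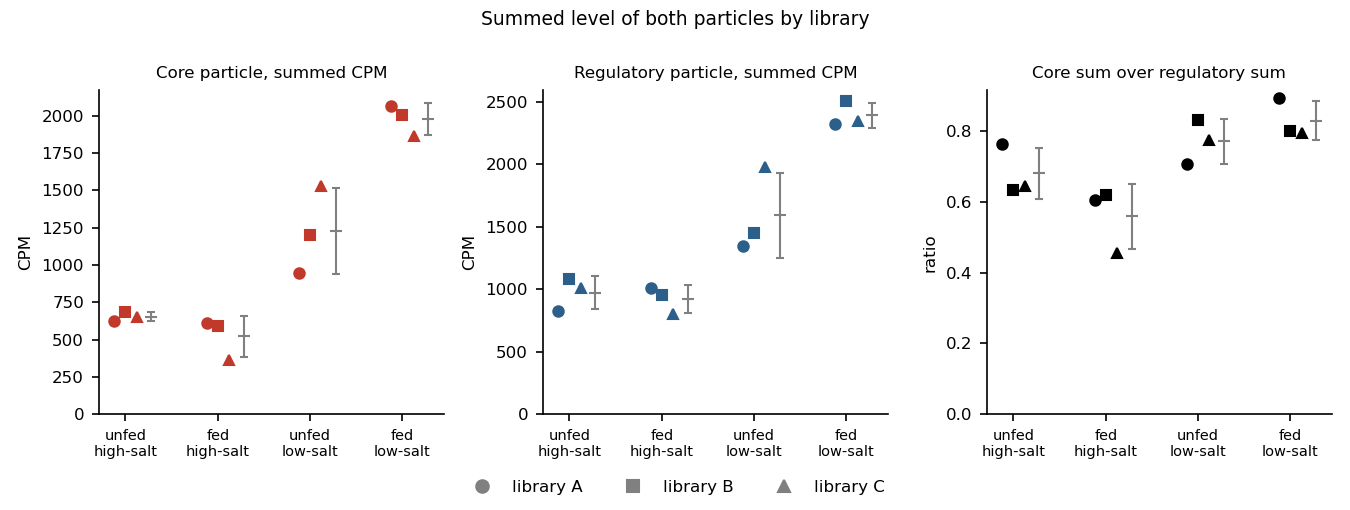
Summed CPM of the 14 core genes (left) and of the 18 regulatory genes (middle), and the ratio of both sums (right), in each library of the 4 groups. Symbols are libraries A, B and C, and grey bars are the mean ± SD (n = 3). All 6 high-salt libraries lie below all 6 low-salt libraries in both sums, and the ratio is lowest in fed high-salt library C.

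The fold changes of both particles overlapped only in part. All 14 core genes lay below the regulatory median of -1.53, and 10 of the 18 regulatory genes lay above every core gene. Within the core, the alpha ring median was -1.998 and the beta ring median -1.97, with ranges of -2.21 to -1.56 and -2.23 to -1.61. The beta genes pbs-1, pbs-2 and pbs-5, counterparts of the subunits that carry the active sites in yeast and mammals, had log2 fold changes of -1.61 ± 0.25, -1.81 ± 0.25 and -1.97 ± 0.29 (SE). Of these pbs-1 had the smallest change of the beta ring, and the others lay within its range.

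The lowest fold changes of the core belonged to pbs-3, a beta ring gene, and pas-1, an alpha ring gene. The level of pbs-3 was 25.0, 27.6 and 18.1 CPM in fed high-salt libraries A, B and C, against 113.7, 115.0 and 105.3 CPM in fed low-salt libraries. Its log2 fold change was -2.23 ± 0.29 (SE, adjusted p = 3.05e-05), a 4.70-fold lower level. The groups were far apart, with library C lowest in both.

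The gene pas-1 had 15.6, 17.5 and 13.4 CPM in fed high-salt libraries, against 72.7, 74.5 and 69.4 CPM in fed low-salt libraries. Its log2 fold change was -2.21 ± 0.25 (SE), and its adjusted p of 9.46e-06 was the smallest of the 32 genes. The fed high-salt values rest on 291, 288 and 66 reads in libraries A, B and C. The smallest core change was that of pas-3, at -1.56 ± 0.30 (SE, adjusted p = 0.00092), with 96.3, 91.4 and 42.8 CPM in fed high-salt libraries, against 253, 222 and 206 CPM in fed low-salt libraries. Fed high-salt library C held less than the other libraries of its group, and the groups did not overlap.

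In the regulatory particle the parts of the base had different medians, a difference that was not tested. All 6 ATPase genes, which form the unfolding ring, fell, with a median log2 fold change of -1.61 and a range from -1.93 for rpt-2 to -1.49 for rpt-5. The scaffold genes rpn-1 and rpn-2 also fell, by 1.08 ± 0.29 and 0.90 ± 0.28 on the log2 scale (SE, adjusted p = 0.00734 and 0.019). The level of rpn-2 was 105.8, 108.8 and 92.4 CPM in fed high-salt libraries, against 171, 196 and 207 CPM in fed low-salt libraries. Those libraries did not overlap, but rpn-2 missed the threshold without fed high-salt library B or C, and without fed low-salt library B or C, with adjusted p-values from 0.0501 to 0.0703. With upper-quartile scaling its log2 fold change was -0.48 (adjusted p = 0.0805). The ubiquitin receptor gene rpn-10 fell by 1.41 ± 0.27 on the log2 scale (SE, adjusted p = 0.000713).

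Of the 9 lid genes 7 fell, 1 rose and 1 did not pass, and the median log2 fold change of the 9 was -1.504. The lowest of the whole regulatory particle was rpn-11, which encodes the metalloprotease that removes ubiquitin chains from substrates. It had 31.3, 31.8 and 24.8 CPM in fed high-salt libraries, against 120.5, 128 and 117 CPM in fed low-salt libraries, and a log2 fold change of -2.05 ± 0.23 (SE, adjusted p = 1.21e-05). The lid genes rpn-9, rpn-12, rpn-7, rpn-5 and rpn-8 fell by 2.02, 1.75, 1.71, 1.504 and 1.32 on the log2 scale. The lid gene rpn-3 fell least, by 0.97 ± 0.26 on that scale (SE, adjusted p = 0.00796).

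**Figure D2:**
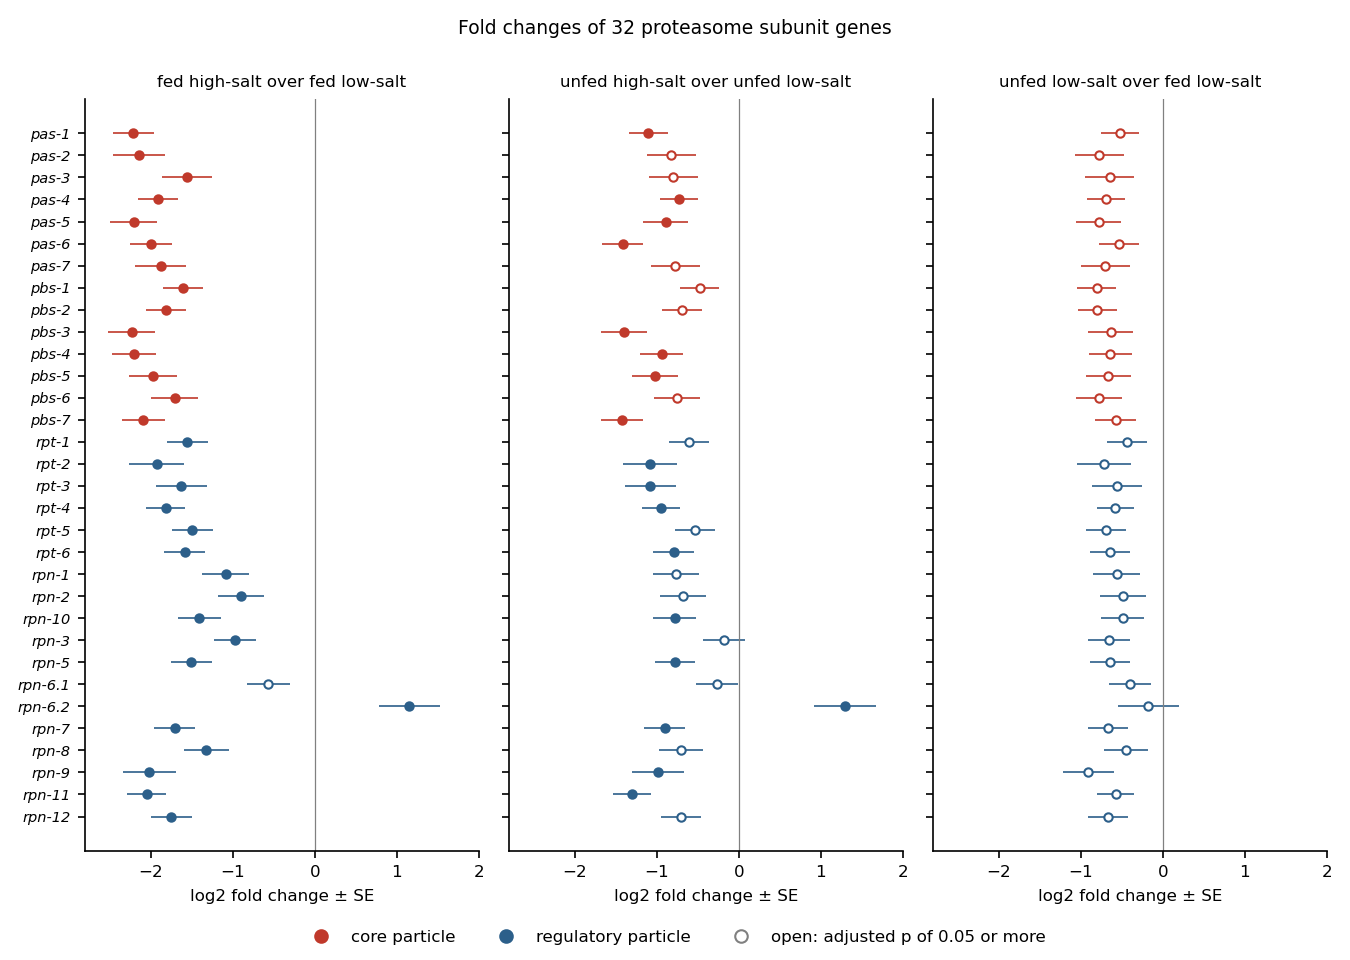
Log2 fold change ± SE (x axis) of each of the 32 subunit genes (rows, core above regulatory) in 3 comparisons, with filled points for an adjusted p under 0.05 and open points for the others. In the left panel 30 genes are filled below 0 and rpn-6.2 is filled above 0; in the right panel all 32 points are below 0 and open.

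The paralogs rpn-6.1 and rpn-6.2, both annotated as the lid subunit RPN-6, were the exceptions. In C. elegans rpn-6.1 is known as a gene whose raised expression increases proteasome activity. The level of rpn-6.1 was 95.4, 106.4 and 86.9 CPM in fed high-salt libraries, against 145, 143 and 139 CPM in fed low-salt libraries. Every fed high-salt library was below every fed low-salt library, but the log2 fold change of -0.57 ± 0.26 (SE) did not pass (adjusted p = 0.0946). Over the alternative analyses its adjusted p went below 0.05 in 1, the fit without unfed high-salt library A (0.0448).

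The level of rpn-6.2 was low everywhere. It was 5.48, 6.18 and 6.09 CPM in fed high-salt libraries, from 102, 102 and 30 reads, against 2.68, 2.57 and 2.71 CPM in fed low-salt libraries, from 44, 43 and 205 reads. It rose by 1.15 ± 0.37 on the log2 scale (SE, adjusted p = 0.0235), and the groups did not overlap, on the higher side, as for 30.4% of all genes tested. The call was lost without any single library of either group, with adjusted p-values from 0.0532 to 0.100 and fold changes from 1.05 to 1.16, and without a count filter (0.214). The reads of paralogs can be split by the authors' counting, whose settings are not given in the sources used here.

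**Figure D3:**
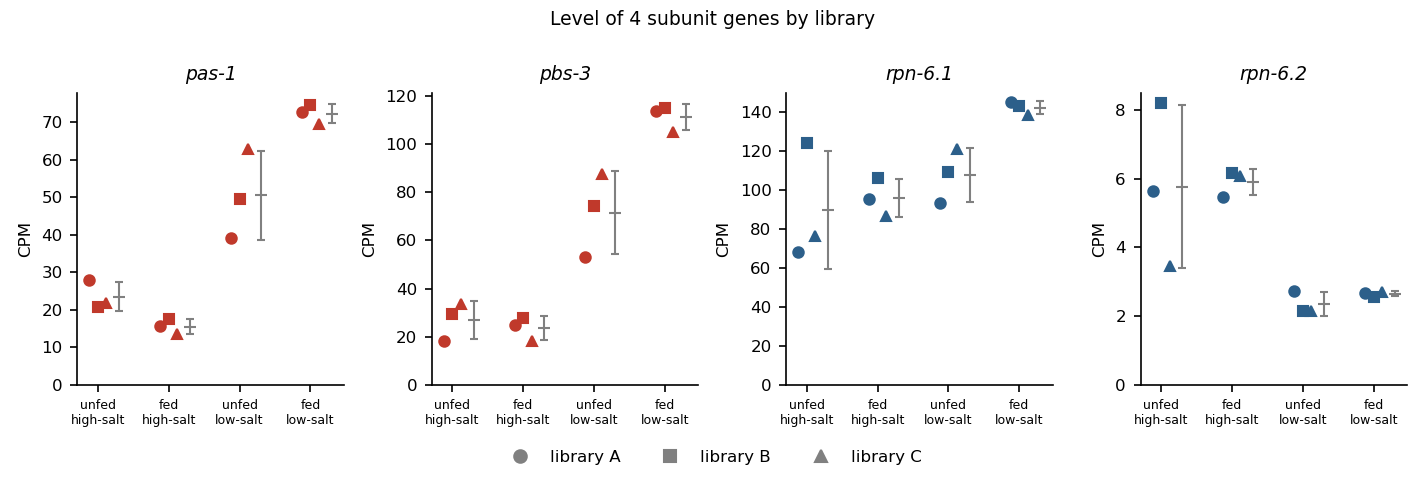
CPM of pas-1, pbs-3, rpn-6.1 and rpn-6.2 in each library of the 4 groups, with symbols for libraries A, B and C and grey bars for the mean ± SD (n = 3). The core genes are lowest in high-salt libraries, rpn-6.1 differs less, and rpn-6.2 is highest in high-salt libraries, at most at 8.20 CPM.

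Levels of different genes were compared per kilobase of coding sequence. In fed low-salt larvae the highest level was that of pas-3, 303 ± 32 CPM per kb (SD, n = 3), and the lowest was that of rpn-6.2, 2.13 ± 0.06 CPM per kb. The median level of the core genes was 191 CPM per kb and that of the regulatory genes 106 CPM per kb in that group. In fed high-salt larvae these medians were 43.3 and 34.1 CPM per kb. Among the 32 genes pas-3 was first and rpn-6.2 last in every group, while the rank of rpn-6.1 was 3 in fed high-salt and 22 in fed low-salt larvae. The order of the core genes pas-1 and pas-3, the lowest and the highest of the core, was the same in all 4 groups.

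The ratio of summed core CPM to summed regulatory CPM compares the RNA reads of both gene sets within a library, without scaling by length. A ratio under 1 therefore does not mean less core RNA per length. Per kb of coding sequence the core median was above the regulatory median in every group. The ratio of the sums was 0.763, 0.633 and 0.643 in unfed high-salt libraries A, B and C, and 0.606, 0.618 and 0.454 in fed high-salt libraries. It was 0.706, 0.831 and 0.772 in unfed low-salt libraries and 0.892, 0.801 and 0.793 in fed low-salt libraries. Every fed high-salt library was below every low-salt library, and unfed high-salt library A overlapped the unfed low-salt range. Group means were 0.680 ± 0.072, 0.559 ± 0.091, 0.770 ± 0.063 and 0.829 ± 0.055 in unfed high-salt, fed high-salt, unfed low-salt and fed low-salt larvae (SD, n = 3 each). Without fed high-salt library C, the one richest in ribosomal RNA, the fed high-salt mean was 0.612.

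Fold changes were also set against coding length. Between fed high-salt and fed low-salt larvae Spearman's rho of log2 fold change with coding length was 0.74 across the 32 genes, 0.53 within the core and 0.53 within the regulatory particle. Across 16550 genes with a coding length rho was 0.08, there for the difference of group mean log2 levels in place of the fitted fold change. The sign was not the same in every comparison. Across the 32 genes rho was 0.40 between unfed high-salt and unfed low-salt larvae and 0.67 between fed high-salt and unfed low-salt larvae. Across the 16550 genes it was 0.07 and 0.23 there. Between unfed low-salt and fed low-salt larvae rho was 0.32 across the 32 genes, against -0.16 across the 16550 genes. Within the core it was -0.17 and within the regulatory particle 0.09 in that comparison. Between unfed high-salt and fed high-salt larvae it was -0.62 across the 32 genes, against -0.32 across the 16550 genes. These comparisons share libraries. These are descriptions across genes that share the same libraries, and core genes are the shorter ones, at 606 to 852 nucleotides of coding sequence, against 750 to 2943 for regulatory genes. The share of the difference between particles that goes with length was not tested.

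**Figure D4:**
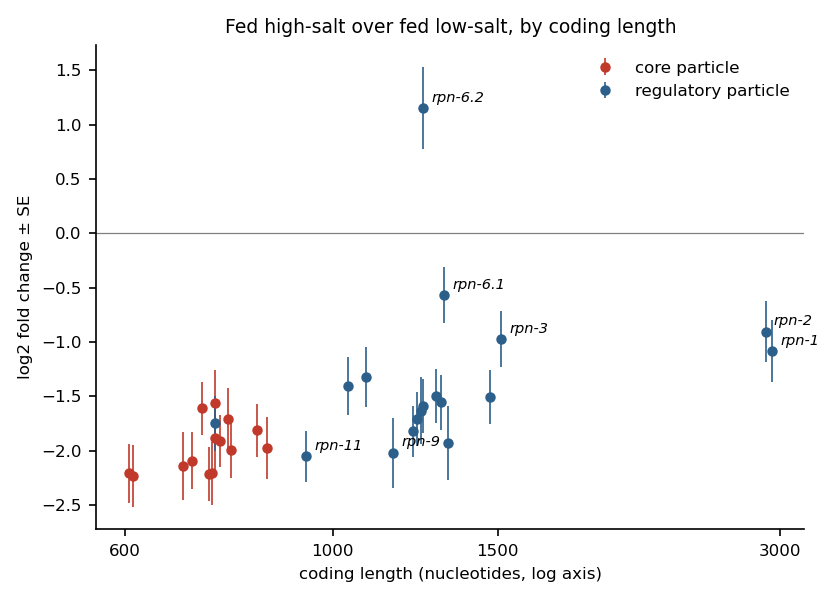
Log2 fold change ± SE between fed high-salt and fed low-salt larvae (y axis) against coding length in nucleotides (x axis, log scale) for the 32 genes, coloured by particle. Core genes cluster at short lengths and low fold changes, rpn-1 and rpn-2 are the longest, and rpn-6.2 stands alone above 0.

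RNA of the subunit genes was also lower at high salt in unfed larvae, but fewer genes passed the test. Of the 32 log2 fold changes 31 were below 0, among them those of all 14 core genes. Between unfed high-salt and unfed low-salt larvae 17 of the 32 genes fell and 1 rose, while 11.2% of all genes tested fell and 6.72% rose. Core genes gave 8 of the 17, with a median log2 fold change of -0.86 over the 14, and regulatory genes gave 9, with a median of -0.77 over the 18. The median over all genes tested was 0.08. Libraries did not overlap, on the lower side, for 27 subunit genes, as for 16.8% of all genes tested. Of the 11 genes with an exon overlap 10 fell, with a median of -0.95, and of the 21 without one 7 fell and 1 rose, with a median of -0.73. The part of the overlaps in these counts was not tested. As a share of reads outside ribosomal RNA genes, the 32 genes took 0.264%, 0.241% and 0.228% in unfed high-salt libraries A, B and C. In unfed low-salt libraries they took 0.306%, 0.328% and 0.397%, so these shares did not overlap either. The relative gap was smaller than in summed CPM, with means of 1630 in unfed high-salt and 2820 in unfed low-salt larvae.

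The lowest fold changes belonged to pbs-7 and pas-6. The level of the beta gene pbs-7 was 24.8, 29.6 and 25.8 CPM in unfed high-salt libraries, against 52.9, 72.8 and 89.7 CPM in unfed low-salt libraries, a log2 fold change of -1.43 ± 0.26 (SE, adjusted p = 0.00101). The level of the alpha gene pas-6 was 29.1, 38.7 and 37.1 CPM in unfed high-salt libraries, against 75.6, 89.5 and 115.2 CPM in unfed low-salt libraries, a log2 fold change of -1.42 ± 0.25 (SE, adjusted p = 0.000879). For both genes the groups were apart, and the unfed low-salt libraries spread more widely than the unfed high-salt ones.

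The deubiquitylase gene rpn-11 fell by 1.30 ± 0.23 on the log2 scale (SE) and had the smallest adjusted p of this comparison among the subunits, 0.000846. The ATPase genes rpt-2, rpt-3, rpt-4 and rpt-6 fell, and rpt-1 and rpt-5 did not pass. Neither scaffold gene passed, at -0.77 ± 0.28 for rpn-1 and -0.68 ± 0.28 for rpn-2 (log2 fold change ± SE). The smallest change among the genes that fell was that of pas-4, -0.73 ± 0.23 (SE, adjusted p = 0.0386), with 38.2, 38.1 and 42.7 CPM in unfed high-salt libraries, against 53.7, 62.7 and 81.0 CPM in unfed low-salt libraries. The call of pas-4 was lost in 10 of the 12 fits that left out 1 library.

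Of the paralogs, rpn-6.2 passed and rpn-6.1 did not. The level of rpn-6.2 was 5.64, 8.20 and 3.46 CPM in unfed high-salt libraries, against 2.74, 2.14 and 2.16 CPM in unfed low-salt libraries, and it rose by 1.30 ± 0.37 on the log2 scale (SE, adjusted p = 0.024). The unfed high-salt libraries were spread more widely than the unfed low-salt ones without overlapping them, as on the higher side for 12.3% of all genes tested. The log2 fold change without unfed high-salt library B was 0.91 (adjusted p = 0.158). The call was also lost without unfed low-salt library B or C, with adjusted p-values of 0.0839 and 0.0648, in a fit of only these groups (0.136) and without a count filter (0.111). The level of rpn-6.1 was 68.0, 124 and 76.5 CPM in unfed high-salt libraries, against 93.6, 109.1 and 121.3 CPM in unfed low-salt libraries. These ranges overlapped, and the log2 fold change was -0.27 ± 0.26 (SE, adjusted p = 0.524).

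Unfed low-salt library C carried much of the unfed low-salt level. It was the highest of its group for 31 of the 32 genes, and library A was the lowest for 26. Without library C only 5 of the 32 genes were called between unfed high-salt and unfed low-salt larvae, with 11.1% of all genes tested. Without unfed high-salt or unfed low-salt library B 10 were called, with 12.6% and 12.3% of all genes. With all 6 libraries of these groups kept, 11 were called without fed low-salt library A, B or C or fed high-salt library B. In those fits 13.2% to 14.1% of all genes were called. In a fit of only these groups 5 were called, with 10.8% of all genes. Called in all 12 fits that left out 1 library were 5 of the 18 genes, and no called gene changed sign in any fit.

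Fed high-salt and unfed low-salt larvae differ in both salt and food, which cannot be told apart here. Of the 32 genes 27 fell and 1 rose in fed high-salt relative to unfed low-salt larvae, while 14.5% of all genes tested fell and 7.04% rose. All 14 core genes fell, with a median log2 fold change of -1.34, and 13 of the 18 regulatory genes fell, with a median of -0.93 over the 18. Libraries did not overlap, on the lower side, for 27 of the 32 genes, as for 23.3% of all genes tested. All 11 genes with an exon overlap fell, with a median of -1.21, and of the 21 without one 16 fell and 1 rose, with a median of -0.94. The genes that did not pass were the scaffolds rpn-1 and rpn-2 and the lid genes rpn-3 and rpn-6.1.

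The lowest fold changes were again those of pas-1 and pbs-3. The gene pas-1 had 15.6, 17.5 and 13.4 CPM in fed high-salt libraries, against 39.0, 49.6 and 62.7 CPM in unfed low-salt libraries, a log2 fold change of -1.69 ± 0.24 (SE, adjusted p = 0.000151). The gene pbs-3 had 25.0, 27.6 and 18.1 CPM in fed high-salt libraries, against 53.0, 74.2 and 87.6 CPM in unfed low-salt libraries, a log2 fold change of -1.60 ± 0.28 (SE, adjusted p = 0.000772). The groups did not overlap for either gene. The ATPase gene rpt-5 had the smallest change among the genes that fell, -0.80 ± 0.24 (log2 fold change ± SE, adjusted p = 0.0272). Its call held in 4 of the 12 fits that left out 1 library, and without unfed low-salt library C its log2 fold change was -0.53 (adjusted p = 0.236).

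Again rpn-6.2 was the gene that rose, by 1.33 ± 0.38 on the log2 scale (SE, adjusted p = 0.019). Its libraries did not overlap, on the higher side, as for 16.7% of all genes tested. Its call was lost without fed high-salt library B or C or unfed low-salt library B, with adjusted p-values from 0.0517 to 0.0726, and without a count filter (0.105). The number of subunit genes called was 14 without fed high-salt library C and 14 without unfed low-salt library C. Those fits called 13.6% and 13.8% of all genes tested. Called in all 12 fits that left out 1 library were 13 of the 28.

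For lack of food at low salt every subunit gene had a lower mean level, but none passed the test. This comparison shares the fed low-salt libraries with that of fed high-salt larvae. Between unfed low-salt and fed low-salt larvae 0 of the 32 genes were called with edgeR's quasi-likelihood test, while 7.68% of all genes tested were called in either direction. All 32 log2 fold changes were below 0, with a median of -0.65, against 0.15 over all genes tested. The core median was -0.68 and the regulatory median -0.58. With upper-quartile scaling 31 of the 32 were below 0. Libraries did not overlap, on the lower side, for 29 of the 32 genes, as for 20.5% of all genes tested.

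At an unadjusted p under 0.05 there were 24 subunit genes, 14 of the core and 10 of the regulatory particle. The share of all genes under that unadjusted threshold was not counted. DESeq2 called 14 of the 32 genes and 14.8% of all genes tested, and edgeR's exact test called 2 of the 32 and 11.8% of all. The smallest adjusted p was that of pbs-1, 0.0509, with 78.2, 87.4 and 122.5 CPM in unfed low-salt libraries, against 163, 179 and 163 CPM in fed low-salt libraries, and a log2 fold change of -0.81 ± 0.24 (SE). Unfed low-salt library C was nearest to the fed low-salt libraries. Without that library 10 subunit genes were called, with 11% of all genes tested. Without unfed high-salt library A, which is in neither group, 8 were called, with 16.3% of all genes tested.

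The summed level of the core genes was 950 CPM in unfed low-salt library A, 1204 CPM in B and 1530 CPM in C, against 1862 to 2069 CPM in fed low-salt libraries. The summed level of the regulatory genes was 1346, 1448 and 1981 CPM in unfed low-salt libraries, against 2319 to 2506 CPM in fed low-salt libraries. The SD of a gene's level was a median of 22.1% of its mean over the 32 genes in unfed low-salt larvae, against 5.50% in fed low-salt larvae.

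Lack of food at high salt gave no call. Between unfed high-salt and fed high-salt larvae 0 of the 32 genes were called, while 0.0777% of all genes tested were called in either direction. DESeq2 and edgeR's exact test called 0 of the 32 as well, with 0.521% and 0.433% of all genes tested. An unadjusted p under 0.05 was found for 2 subunit genes, with no share of all genes counted at that threshold. The log2 fold change was above 0 for 27 genes, with a median of 0.17 over the 32, against 0.15 over all genes tested. All 14 core genes were above 0, with a median of 0.32, and the regulatory median was 0.13. Libraries did not overlap, on the higher side, for 9 of the 32 genes, as for 6.61% of all genes tested. The summed core level was 629, 687 and 652 CPM in unfed high-salt libraries, against 612, 591 and 363 CPM in fed high-salt libraries. These ranges did not overlap, and fed high-salt library C was far below the other libraries. Without that library the median over the 32 genes was 0.09 and 12 genes were below 0, and without fed high-salt library A the median was 0.33.

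The interaction asks whether the difference between unfed and fed larvae was the same at both salt levels. It was called for 0 of the 32 genes with edgeR's quasi-likelihood test, while 2% of all genes tested were called. An unadjusted p under 0.05 was found for 20 subunit genes, with no share of all genes counted at that threshold. DESeq2 called 10 of the 32 genes and 6.94% of all genes tested. All 32 interaction terms were above 0, with a median of 0.84 on the log2 scale, against -0.04 over all genes tested. The core median was 1.11 and the regulatory median 0.77, and the smallest adjusted p was 0.0731, for pas-4, at 1.18 ± 0.33 (log2 ± SE). Without unfed low-salt library C 6 subunit genes were called, with 4.65% of all genes tested. Without unfed high-salt library A 2 were called, with 5.26% of all genes tested.

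Across the 4 groups, the mean level was highest in fed low-salt and second in unfed low-salt larvae for 31 of the 32 genes. The lowest mean was in fed high-salt larvae for 27 genes and in unfed high-salt larvae for 4, rpn-1, rpn-2, rpn-6.1 and rpt-3. No gene passed the test between neighbours in this order, either within low salt or within high salt. The exception in order was rpn-6.2, highest in fed high-salt and lowest in unfed low-salt larvae. All 6 high-salt libraries lay below all 6 low-salt libraries for 26 genes, 14 of the core and 12 of the regulatory particle, as for 11.6% of all genes tested.

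The authors' deposited tables, from edgeR's exact test, were read at a false discovery rate under 0.05. In the authors' deposited table of fed low-salt over fed high-salt larvae, 31 of the 32 genes were called, 30 of them higher in fed low-salt larvae, as were 45.2% of all genes there in either direction. The authors' deposited table of unfed low-salt over unfed high-salt larvae held 19 called subunit genes, with 23.2% of all its genes called. In the authors' deposited table of unfed low-salt over fed low-salt larvae 3 subunit genes and 13.8% of all genes were called, and the 3 were lower in unfed low-salt larvae. In the authors' deposited table of unfed high-salt over fed high-salt larvae 0 subunit genes and 0.530% of all genes were called.

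Other genes of the ubiquitin-proteasome pathway were followed as lists, whose counts stand beside the 22.1% of all genes tested that fell and the 16.1% that rose between fed high-salt and fed low-salt larvae. Of 10 tested factors that bind or assemble the proteasome, 5 fell and none rose in that comparison. The deubiquitylase genes usp-14 and ubh-4, whose products act on the proteasome, fell by 2.41 ± 0.25 and 2.06 ± 0.26 on the log2 scale (SE, adjusted p = 5.41e-06 and 2.46e-05). The level of usp-14 was 22.8, 16.8 and 15.8 CPM in fed high-salt libraries, against 99.1, 104 and 92.8 CPM in fed low-salt libraries. The gene psme-3, a counterpart of the mammalian PA28 gamma activator, fell by 1.98 ± 0.32 on the log2 scale (SE, adjusted p = 0.000202). For ubh-4 and psme-3 the interaction also passed, at 1.53 ± 0.35 and 1.91 ± 0.44 (log2 ± SE, adjusted p = 0.0383 for both).

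The transcription factor SKN-1A raises proteasome genes when the proteasome is impaired, after processing by the protease DDI-1 and the glycanase PNG-1. Of 7 genes of that pathway 4 fell between fed high-salt and fed low-salt larvae, against 22.1% of all genes tested. They were sel-9, which encodes a p24-family protein of the early secretory pathway (-1.87 ± 0.31), png-1 (-1.66 ± 0.25), ddi-1 (-1.09 ± 0.24) and sel-1 (-0.87 ± 0.25, log2 fold change ± SE). The gene skn-1 itself had a log2 fold change of 0.19 ± 0.25 (SE, adjusted p = 0.554), and its counts do not separate its isoforms. The level of png-1 was 15.97, 11.6 and 11.2 CPM in fed high-salt libraries, against 37.6, 41.1 and 44.9 CPM in fed low-salt libraries, with no overlap.

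Upstream of the proteasome, the ATPase CDC-48 extracts ubiquitylated proteins from complexes and membranes. Of 13 tested genes for CDC-48 and its cofactors 10 fell between fed high-salt and fed low-salt larvae, against 22.1% of all genes tested. The gene cdc-48.2 fell by 2.65 ± 0.31 and cdc-48.1 by 2.11 ± 0.30 on the log2 scale (SE, adjusted p = 1.3e-05 and 6.98e-05), and the cofactor gene npl-4.2 fell by 1.102 ± 0.22. Of 25 tested genes for ubiquitin and its E1 and E2 enzymes, 9 fell and 4 rose, against 22.1% and 16.1% of all genes tested, and the list's median log2 fold change was -0.10. The E2 genes ubc-18, ubc-20 and ubc-13 fell by 1.43, 1.30 and 1.04 on the log2 scale. The lists moved less between unfed high-salt and unfed low-salt larvae, where 11.2% of all genes tested fell and 6.72% rose. There 1 of 10 proteasome-associated factors fell (median log2 fold change -0.09), 3 of 7 SKN-1A pathway genes (-0.40) and 2 of 13 CDC-48 genes (-0.23). Of the 25 ubiquitin, E1 and E2 genes 3 fell and 3 rose there (-0.10).

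Markers of tissues were measured beside the subunits, since whole larvae hold all cell types. Between fed high-salt and fed low-salt larvae, the first comparison given here, 22.1% of all genes tested fell and 16.1% rose. Summed CPM of 5 pharynx markers was 5459 to 8183 in fed high-salt libraries, against 1059 to 1956 in fed low-salt libraries, and all 5 rose. Summed CPM of 7 germline markers was 100.7 to 104.4 in fed high-salt libraries, against 298 to 370 in fed low-salt libraries, and 4 of 7 fell. Of 5 intestine markers 1 rose and 2 fell, with sums of 497 to 681 CPM in fed high-salt and 1949 to 2409 CPM in fed low-salt libraries. Of 4 tested body wall muscle markers 1 rose and 1 fell, with sums of 7851 to 10527 CPM in fed high-salt and 5565 to 9222 CPM in fed low-salt libraries. The muscle gene hlh-1 was listed at 0 in all 12 libraries. Of 6 tested embryo markers 2 fell, with sums over the 7 listed of 14.8 to 22.9 CPM in fed high-salt libraries, against 49.1 to 53.8 CPM in fed low-salt libraries. Of 5 epidermis markers 1 rose and 1 fell, with sums of 179 to 227 CPM in fed high-salt and 277 to 477 CPM in fed low-salt libraries. The median log2 fold change of these 5 was 0.22, above 0 although the sums were lower. Of 6 neuron markers 0 passed, with sums of 1188 to 1479 CPM in fed high-salt and 876 to 1030 CPM in fed low-salt libraries. The sums of 6 sperm and 4 yolk markers reached at most 18.998 and 28.8 CPM in any library, both in unfed high-salt larvae. Between unfed high-salt and unfed low-salt larvae 2 of 5 pharynx markers rose, with sums of 2143 to 6368 CPM in unfed high-salt and 1723 to 2804 CPM in unfed low-salt libraries, and 1 intestine marker rose and 4 fell. Of all genes tested 6.72% rose and 11.2% fell there. Between unfed low-salt and fed low-salt larvae 4 of 7 germline markers fell, with sums of 75.6 to 133.2 CPM in unfed low-salt and 298 to 370 CPM in fed low-salt libraries, and 2 of 6 tested embryo markers fell. In that comparison 7.68% of all genes tested were called in either direction. Between fed high-salt and unfed low-salt larvae 4 of 5 pharynx and 3 of 4 tested muscle markers rose, 1 muscle marker fell, and 1 intestine marker rose and 3 fell. Of all genes tested 7.04% rose and 14.5% fell there. The part of these shifts in the subunit results was not tested.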

How the data were processed

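Each library's deposited file lists raw counts of reads for every gene. The submitters' processing notes name Bowtie 1.1.2 and HTSeq, but counting settings and genome build are not given in the sources used here. Comparison tables deposited by the authors hold log2 fold changes, p-values and false discovery rates from edgeR, and supplied the gene symbols. Polyadenylated RNA libraries came from a non-directional kit with 15 PCR cycles, per the labels' protocols.

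The counts were fitted with edgeR 4.0.16 (R 4.3.3): filterByExpr (minimum count 10, minimum total 15), TMM scaling, 1 model over all 12 libraries, and the two-sided robust quasi-likelihood F-test, with Benjamini-Hochberg adjustment per comparison over 18028 genes and a threshold of 0.05. The SE is the log2 fold change divided by the square root of F. Coding length is the longest coding sequence in the Ensembl WBcel235 annotation; the plan had named RefSeq proteins, which were not used here. Steps were tested on simulated counts. Alternatives included DESeq2 1.42.0, the exact test, other scalings and filters, and leaving out libraries.

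The 32 genes, the pathway lists and the marker lists were chosen with earlier results of these data known, so lists get counts and medians only. Values per library are given for the lowest and highest called fold changes of each comparison, genes called against the rest, genes not passing in fed larvae, paralogs, and the extremes per kb. Up to 3 genes of each other list, by smallest p, are named; further genes were named after their values were seen.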

Additional observations from a re-analysis of the deposited data

How the results depend on the processing

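No called subunit gene changed sign in any of the 24 alternative settings, in the 3 comparisons with calls. Genes that did not pass did so in some of them. For unfed high-salt over fed high-salt larvae, with 5 of 32 genes below 0, there were 3 without a count filter and 12 without fed high-salt library C. For the interaction, with 0 below 0, there were 2 with upper-quartile scaling. That scaling gave 31 below 0 in place of 32 for unfed low-salt over fed low-salt larvae. For unfed high-salt over unfed low-salt and for fed high-salt over unfed low-salt larvae it gave 30 in place of 31. Without unfed low-salt library C there were also 30 for unfed high-salt over unfed low-salt larvae. Fed high-salt over fed low-salt larvae gave 29 to 32 called subunit genes over all the alternative settings, with 19.5% to 57.9% of all genes tested. In that comparison upper-quartile scaling moved the median of all genes tested from 0.12 to 0.55. It moved their calls from 2905 higher and 3993 lower to 4750 higher and 2705 lower. The core median moved to -1.58 and the regulatory median to -1.10. The regulatory median was -1.79 without a count filter and -1.28 with a filter of 5 CPM in 3 libraries. The cause was not tested. Upper-quartile scaling also gave a regulatory median of -0.71 for fed high-salt over unfed low-salt larvae and 0.52 for the interaction.

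Counts of subunit genes called are given with the share of all genes called in the same fit. For unfed low-salt over fed low-salt larvae, where 0 genes passed, 1 was called without a count filter (4.98%). There were 2 with edgeR's exact test (11.8%), 2 with RLE factors (7.79%) and 2 with the filter of 5 CPM (15.9%). There were 11 in a fit of only these groups (23.3%) and 14 with DESeq2 (14.8%). Without both unfed high-salt library A and fed high-salt library C there were 16 (17.7%). For unfed high-salt over unfed low-salt larvae the count was 5 in a fit of only these groups (10.8%) and 11 with ribosomal RNA genes removed (15.8%). For the interaction it was 10 with DESeq2 (6.94%) and 2 with the filter of 5 CPM (5.13%).

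Leaving out 1 library at a time gave 0 to 10 called genes for unfed low-salt over fed low-salt larvae, with core medians of -0.97 to -0.54 and regulatory medians of -0.86 to -0.51. It gave 5 to 18 called genes for unfed high-salt over unfed low-salt larvae, with regulatory medians of -0.86 to -0.50. Fed high-salt over unfed low-salt larvae gave 14 to 28 called genes, core medians of -1.53 to -1.03 and regulatory medians of -1.07 to -0.66. The interaction gave 0 to 6 called genes, core medians of 0.93 to 1.39 and regulatory medians of 0.69 to 1.02. The largest move of these medians came without unfed low-salt library C. Over these fits the share of all genes called was 1.09% to 16.3%, 11.1% to 22.9%, 12.6% to 28.3% and 0.316% to 5.26%, in the order given. Unfed high-salt over fed high-salt larvae gave core medians of 0.21 to 0.44 and regulatory medians of 0.02 to 0.25.

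The core to regulatory ratio taken from medians of CPM, in place of sums, was 0.920, 0.749, 0.970 and 1.01 in unfed high-salt, fed high-salt, unfed low-salt and fed low-salt larvae. In unfed high-salt larvae it was 1.17 in library A, the highest of all 12 libraries, and 0.771 and 0.814 in B and C, below every low-salt library.

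Libraries with the same letter had correlated deviations of -0.16 to 0.40, not all over 0.1, and the labels do not give what a shared letter stands for, so the letters were not taken as pairs. With the replicate block 31 subunit genes were called in fed high-salt over fed low-salt larvae, against 40.8% of all genes tested. There were 19 in unfed high-salt over unfed low-salt larvae, against 18.9%, and 28 in fed high-salt over unfed low-salt larvae, against 22.7%. Unfed low-salt over fed low-salt larvae gave 1, against 9.28%, and the others gave 0. Depth limits rpn-6.2 most, with 30 to 205 reads per library.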

Other observations

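The regulatory subunit gene rpn-13, another ubiquitin receptor, carries no symbol in the authors' deposited tables and so stands outside the rule; it was added after the files were read. It had 72.7, 73.3 and 55.0 CPM in fed high-salt libraries, against 102, 113 and 103 CPM in fed low-salt libraries. It fell by 0.66 ± 0.23 on the log2 scale (SE, adjusted p = 0.0322), and the libraries did not overlap. It did not pass in any of the other comparisons.

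Complexes related to the lid were measured too. The COP9 signalosome, whose subunits resemble lid subunits, removes the ubiquitin-like protein NEDD8 from cullin-RING ubiquitin ligases. Of its 7 genes 4 fell between fed high-salt and fed low-salt larvae and none rose, with a median log2 fold change of -0.80 over the 7. Of all genes tested 22.1% fell and 16.1% rose in that comparison. The named ones were cif-1 (-1.49 ± 0.33), csn-6 (-1.17 ± 0.25) and csn-3 (-1.03 ± 0.22, log2 fold change ± SE). Of 17 tested genes for cullin-RING ligases and NEDD8 conjugation 5 fell and none rose, with a median of -0.50, against the same 22.1% and 16.1%. The named ones were the Skp1-related gene skr-2 (-1.68 ± 0.27), the elongin B gene elb-1 (-1.37 ± 0.23) and the NEDD8 E1 subunit gene ula-1 (-1.30 ± 0.21). Between unfed high-salt and unfed low-salt larvae 0 of the 7 COP9 genes and 2 of the 17 fell, against 11.2% of all genes tested. Between unfed low-salt and fed low-salt larvae 0 genes of both lists were called with edgeR's quasi-likelihood test, against 7.68% of all genes tested. In that comparison 2 of 13 CDC-48 genes and 1 of 10 proteasome-associated factors fell, and 0 genes of the SKN-1A and ubiquitin lists were called.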
